A study of Mus musculus with 4 samples.

Results

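The comparison described here was between 2 populations that had each started from Foxp3+ CD4 T cells. Those labelled exFoxp3Th17 made IL-17 after culture, and those labelled Treg were positive for Foxp3. The members were chosen by the labels alone and are 2 of the 4 arrays of the series, 1 for each population. A gene was represented by its brightest probe set, and 11197 of 18193 genes lay above the floor of 12.1 signal units on either array. The exFoxp3Th17 cells came from Foxp3+ CD4 T cells kept under Th17 conditions and were sorted as positive for a GFP reporter of IL-17 and negative for Foxp3. The Treg cells came from Foxp3+ CD4 T cells kept with IL-2 and were sorted as IL-17 negative and Foxp3 positive. The other pair of arrays came from naive CD4 T cells: Th17 cells were kept under Th17 conditions and carried the same sort gates as exFoxp3Th17, and Th0 cells were kept under Th0 conditions and were negative for both. C57BL/6 mice aged 8 to 10 weeks gave the spleens and lymph nodes for all 4 populations. The cytokines that make up the Th17 and Th0 conditions, the length of culture and the number of mice are not given in the sources used here. Culture and sort gate differ together between exFoxp3Th17 and Treg, so their parts cannot be told apart.

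Regulatory T cells restrain immune responses, and the transcription factor Foxp3 fixes their identity together with signals from the IL-2 receptor through STAT5. Th17 cells are helper T cells that make IL-17 and defend mucosal surfaces, and in the mouse they arise under TGF-beta and IL-6, with STAT3 as the main signalling factor. Cells that have lost Foxp3 and gained helper cytokines are commonly called exFoxp3 cells.

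Each population had 1 array, so differences are given as ratios of 2 arrays with no test, no spread between samples and no p-value. A gene was called higher or lower in exFoxp3Th17 at a difference of 2-fold or more with the brighter array above the floor, and a fold against a value under the floor is a lower bound, written as "at least". Signals are on the linear MAS5 scale, are printed as measured also where they lie under the floor, and are not compared between genes. On the 4 arrays 48.7% to 51.2% of probe sets lay above the floor. The 3'/5' ratio of control probe sets, which rises as RNA degrades, was 0.95 for Gapdh and 1.31 for Actb on the exFoxp3Th17 array and 0.92 and 1.12 on the Treg array.

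The labels were checked against defining genes. Foxp3 had a signal of 8.03 in exFoxp3Th17, 585 in Treg, 6.20 in Th17 and 4.26 in Th0, so the array labelled Treg was the array with a Foxp3 signal above the floor. No array had an Il17a signal above the floor, so the probe set did not show the IL-17 gate. Cd3d (4536 against 3133) and Cd3g (3207 against 1871), members of the T cell receptor complex, were within 2-fold between exFoxp3Th17 and Treg. Cd4 was 2.03-fold higher (98.1 against 48.3). Of the 6 CD4 T cell markers, the receptor adaptor Trat1 was 18.2-fold lower (48.2 against 876).

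Markers of other cells differed by cell type in how many passed the floor. No erythroid marker, 2 of 8 myeloid markers, 2 of 5 B cell markers, 2 of 4 NK cell markers, 2 of 2 CD8 T cell markers and 6 of 9 dendritic cell markers lay above it on either array. The summed signal of the B cell markers was 44.1 in exFoxp3Th17 and 75.7 in Treg, with Cd79b at 19.3 against 55.6 and Cd79a and Ms4a1 below the floor on both arrays. The dendritic cell markers summed to 91.5 in exFoxp3Th17 and 257.5 in Treg, and H2-Ab1, a class II MHC chain, held most of the difference (19.8 against 132). The NK cell markers summed to 522.3 in exFoxp3Th17, 60.5 in Treg, 1971.7 in Th17 and 263.0 in Th0. Klrd1 held most of the difference between exFoxp3Th17 and Treg (504 against 32.1), and Ncr1 was below the floor on both. Myeloid markers summed to 46.5 and 60.6, and CD8 T cell markers to 76.5 and 66.0, in exFoxp3Th17 and Treg. The part of such cells in the results was not tested.

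Sex is not given in the labels, and sex-linked transcripts differed between the 2 arrays. Xist, an RNA transcribed from the silent X chromosome of female cells, was at least 311-fold higher in exFoxp3Th17 (3766 against 10.8), while the Y-linked genes Eif2s3y, Kdm5d and Uty were at 4.66, 2.90 and 0.73 in exFoxp3Th17 and at 655, 133.0 and 136 in Treg. Of the X-linked genes that escape silencing, Kdm6a, Kdm5c, Eif2s3x and Ddx3x, stood at log2 ratios of 0.23 to 0.79, within 2-fold. Xist was under the floor in Th17 (7.73) and Th0 (7.41), and Eif2s3y stood at 876 in Th17 and 747 in Th0. In these genes exFoxp3Th17 thus differed from all the other arrays. Sex of the source and population cannot be told apart in this comparison, nor where exFoxp3Th17 is set against Th17 or Th0.

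Of the 11197 genes above the floor on either array, 1328 (11.9%) were higher in exFoxp3Th17, 1170 (10.4%) were lower and 8699 were within 2-fold, and the median log2 ratio was 0.06. At 4-fold or more, 292 genes (2.61%) went up and 301 (2.69%) down, and 8-fold or more was reached by 95 (0.848%) and 80 (0.714%). Among the gene lists with 6 or more members above the floor, the follicular helper program, the TGF-beta pathway and the Th17 program had the highest medians. The interferon-inducible GTPases and IFITM genes, the Treg signature, DNA replication and the IL-2 response had the lowest. In bulk RNA, fewer cells of a type and less RNA per cell cannot be told apart. Counts for the gene groups are to be read against 11.9% higher and 10.4% lower over all genes.

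**Figure D1:**
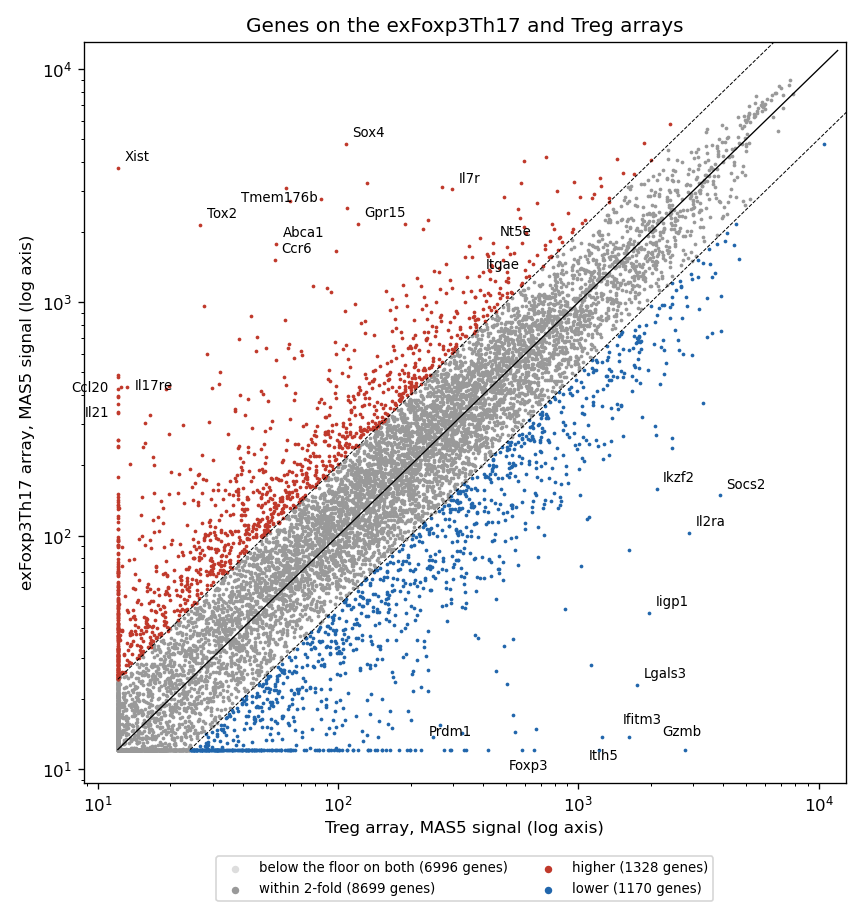
Signal of each gene on the Treg array (x axis) and the exFoxp3Th17 array (y axis), both log axes of MAS5 signal, with values below the floor of 12.1 drawn at the floor; each point is a gene, the solid line marks equal signal and the dashed lines a 2-fold difference. The 1328 genes called higher lie above the upper dashed line, with Sox4 and Tox2 far from it, and the 1170 called lower lie below the lower dashed line, with Gzmb and Ifitm3 far from it.

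Among the 25 genes with the largest differences upward, Tox2 and Sox4, transcription factors of the HMG-box family, were within the first 4. Tox2 had signals of 2150 in exFoxp3Th17, 26.6 in Treg, 383 in Th17 and 16.8 in Th0, 80.9-fold higher in exFoxp3Th17 than in Treg. Sox4 had signals of 4788 in exFoxp3Th17, 108 in Treg, 71.6 in Th17 and 206 in Th0, 44.5-fold higher here, with its 5 other probe sets above the floor all higher by 2-fold or more. Tox2 was thus raised on both Th17 arrays against their partners, whereas Sox4 was high on the exFoxp3Th17 array and lower in Th17 than in Th0.

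The surface receptors Ramp1 and Klrb1f and the cholesterol exporter Abca1 were also among these 25 genes. Ramp1, a partner of the calcitonin receptor-like receptor for the neuropeptide CGRP, stood at 3074 in exFoxp3Th17, 60.4 in Treg, 952 in Th17 and 180.3 in Th0 (50.9-fold higher). Klrb1f, a killer lectin-like receptor of a family whose probes can cross-hybridise, stood at 426 in exFoxp3Th17, 19.3 in Treg, 45.4 in Th17 and 9.39 in Th0 (22.1-fold higher). Abca1 reached 1777 in exFoxp3Th17, 55.3 in Treg, 84.9 in Th17 and 54.7 in Th0 (32.1-fold higher), but its other probe sets above the floor gave far smaller log2 ratios, of which the lower was 0.58 against 5.01 here. For Abca1 and Klrb1f exFoxp3Th17 was well above the other 3 arrays, and for Ramp1 the Th17 array lay between.

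Pde3b, Rasgrp3 and Cyp1a1 also belonged to the 25. Pde3b, a phosphodiesterase that breaks down cyclic AMP, had signals of 3261 in exFoxp3Th17, 132 in Treg, 1379 in Th17 and 2459 in Th0, and here the Treg array was the low one (24.6-fold higher). Rasgrp3, an activator of Ras, was 32.6-fold higher (433 against 13.3) and was under the floor on the naive-derived arrays. Cyp1a1, a detoxifying enzyme induced by the aryl hydrocarbon receptor, was at least 21.3-fold higher (257 against 10.8), and it stood at 35.9 in Th17. The members of the 25 not described elsewhere were Crispld2, Sestd1, Nebl, Abhd15, Dnm3, Pdlim5, Prss12 and Acpp. Their ratios ran from 21.1-fold higher for Acpp to at least 40.4-fold higher for the secreted protein Crispld2.

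Among the 25 genes with the largest differences downward, Gzmb came first. This gene of granzyme B had signals of 1.13 in exFoxp3Th17, 2781 in Treg and 22.6 in Th0 and lay under the floor in Th17, so Treg stood alone (at least 230-fold lower). Itih5, a hyaluronan-binding protein, stood at 13.7 in exFoxp3Th17, 1255 in Treg, 25.5 in Th17 and 435 in Th0 (91.5-fold lower). Lgals3, galectin-3, stood at 22.9 in exFoxp3Th17, 1748 in Treg, 968 in Th17 and 427 in Th0 (76.2-fold lower). For Lgals3 the exFoxp3Th17 array was the low one among the 4, and for Itih5 both Th17 arrays were low.

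Further down the list were Coro2a, an actin-binding coronin, at 14.9 against 666 (44.8-fold lower), and Drc1, a ciliary protein, at 2.85 against 293 (at least 24.2-fold lower). Nfil3, a basic leucine zipper factor, was 23.1-fold lower (14.3 against 329). Morrbid, a long noncoding RNA near Bcl2l11, was at least 22.8-fold lower (2.21 against 276), but the second probe set that passed the floor stayed within 2-fold (log2 -0.88 against -4.51), and Bcl2l11 itself was within 2-fold (351 against 485). Isg20, an interferon-induced exonuclease, was 17.2-fold lower (26.3 against 453), and the membrane protein Myadm was 21.7-fold lower (23.2 against 505).

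The Th17 program was mostly higher in exFoxp3Th17. Of 19 members with a probe set, 18 lay above the floor on either array, and these split into 11 higher, 1 lower and 6 within 2-fold. Their median log2 ratio was 1.64 against 0.06 over all genes. The members above the floor there had a median of 3.18 in Th17 over Th0, a pair that shares no array with this one. Il23r, Il17f and Il22 had no probe set assigned to them alone and were not analysed here.

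The receptors and secreted factors of the program differed more than its regulators. Ccr6, the chemokine receptor of Th17 cells, stood at 1522 in exFoxp3Th17, 54.5 in Treg, 329 in Th17 and 19.6 in Th0 (27.9-fold higher). Its ligand Ccl20 stood at 427 in exFoxp3Th17, 2.67 in Treg, 169 in Th17 and 1.02 in Th0 (at least 35.3-fold higher). The cytokine Il21 stood at 339 in exFoxp3Th17, 1.70 in Treg, 491 in Th17 and 1.50 in Th0 (at least 28-fold higher). All 3 were above the floor by a wide margin on both Th17 arrays and low in Treg.

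Receptors for IL-1 and IL-17 followed. Il1r1, the signalling receptor for IL-1, stood at 107 in exFoxp3Th17, 1.62 in Treg, 103 in Th17 and 1.42 in Th0 (at least 8.82-fold higher), level between both Th17 arrays. Il17re, a receptor subunit for IL-17C, stood at 433 in exFoxp3Th17, 12.5 in Treg, 72.2 in Th17 and 17.1 in Th0 (34.5-fold higher), and both of its further probe sets went up by at least 2-fold. The membrane proteins Tmem176a and Tmem176b were 42.9-fold higher (2710 against 63.2) and 32.8-fold higher (2781 against 84.9). The IL-6 receptor chain Il6ra was 2.38-fold higher (647 against 272), and its partner Il6st was within 2-fold (179 against 106). In the wider IL-1 receptor family 4 of 6 measured members were higher, with a median of 1.05, and Il18r1 (1670 against 819.6) and Il1rap (56.6 against 26.9) lay just past 2-fold. Of 5 IL-17 receptor genes 3 lay above the floor, with Il17rd 3.13-fold higher (39.3 against 12.6) and Il17ra within 2-fold (868 against 604).

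The regulators of the program were divided, with 3 of 9 higher, 1 lower and 5 within 2-fold. Rora, a nuclear receptor of the Th17 lineage, stood at 918 in exFoxp3Th17, 107 in Treg, 682 in Th17 and 66.3 in Th0 (8.59-fold higher), and 6 further probe sets went the same way, 5 of them by 2-fold or more. Ahr, the aryl hydrocarbon receptor, stood at 746 in exFoxp3Th17, 183 in Treg, 1528 in Th17 and 38.0 in Th0 (4.08-fold higher). Maf stood at 2219 in exFoxp3Th17, 1351 in Treg, 3072 in Th17 and 17.2 in Th0 and was within 2-fold here, although its 4 other probe sets above the floor all went up by at least 2-fold. Irf4, a factor induced by T cell receptor signals, went the other way at 80.3 in exFoxp3Th17, 373 in Treg, 1055 in Th17 and 109.5 in Th0 (4.64-fold lower). Batf (657 against 581), Stat3 (675 against 478), Hif1a (2639 against 3006) and Nfkbiz (303 against 462) were within 2-fold.

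The Treg signature was mostly lower. All 28 members with a probe set lay above the floor on either array, of which 18 were lower, 3 were higher and 7 were within 2-fold. The median log2 ratio was -2.19. In Th17 over Th0 the median of its members was 1.06. The signature was drawn up from general knowledge with earlier results of these arrays known, so its direction is a description.

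Transcription factors of the signature split by gene. Ikzf2, Helios, stood at 158 in exFoxp3Th17, 2115 in Treg, 48.3 in Th17 and 62.2 in Th0 (13.4-fold lower). Prdm1, the gene of Blimp-1, stood at 6.96 in exFoxp3Th17, 422 in Treg, 4.14 in Th17 and 61.9 in Th0 (at least 34.9-fold lower). Plagl1 went the other way at 278 in exFoxp3Th17, 88.5 in Treg, 43.3 in Th17 and 14.9 in Th0 (3.14-fold higher), and Ikzf4, Eos, was within 2-fold (383 against 292). The Ikzf2 signal in exFoxp3Th17 was above that in Th0 and Th17 and far under that in Treg.

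Of the 14 receptors in the signature 9 were lower and 1 was higher. Il2ra, CD25, stood at 103 in exFoxp3Th17, 2878 in Treg, 2178 in Th17 and 646 in Th0 (28-fold lower), which left exFoxp3Th17 as the lowest of the 4 arrays. Tnfrsf9, 4-1BB, stood at 6.69 in exFoxp3Th17, 340.3 in Treg, 168 in Th17 and 27.1 in Th0 (at least 28.1-fold lower). Gpr83, a G protein-coupled receptor of Treg cells, was at least 16.4-fold lower (7.98 against 199), and Izumo1r, folate receptor 4, was 18.1-fold lower (13.6 against 247). Tnfrsf18, GITR, was 4.99-fold lower (597 against 2980), and Tnfrsf4, OX40, was 4.23-fold lower (549 against 2320). Receptors often used to describe Treg cells that lay within 2-fold were Ctla4 (1914 against 2789), Icos (1262 against 2139) and Nrp1 (333 against 278).

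Itgae, the CD103 integrin chain that binds epithelial cadherin, was the receptor that went up. It stood at 1298 in exFoxp3Th17, 384 in Treg, 46.7 in Th17 and 8.32 in Th0 (3.38-fold higher), so both arrays of Foxp3+ origin were above both arrays of naive origin. Of 7 suppressive effectors 5 were lower: beside Gzmb these were Il10 (12.0 against 133, at least 11-fold lower), Fgl2 (51.5 against 339.9, 6.6-fold lower), Entpd1 (8.39 against 93.4, at least 7.72-fold lower) and Tgfb1 (50.0 against 125, 2.5-fold lower). Ebi3, a subunit of IL-35 and IL-27, was within 2-fold (239.8 against 134).

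The enzymes that make and clear extracellular adenosine, a suppressive product of Treg cells, went in both directions. Entpd1, CD39, cleaves ATP, and Nt5e, CD73, makes adenosine from the product. Nt5e stood at 1800 in exFoxp3Th17, 443 in Treg, 866 in Th17 and 107 in Th0 (4.06-fold higher), high on both Th17 arrays. Ada, which breaks adenosine down, was 9.72-fold lower (13.1 against 127), the transporter Slc29a1 was 2.69-fold lower (19.3 against 52.0), and the kinase Adk was 2.24-fold higher (1458 against 650.1).

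**Figure D2:**
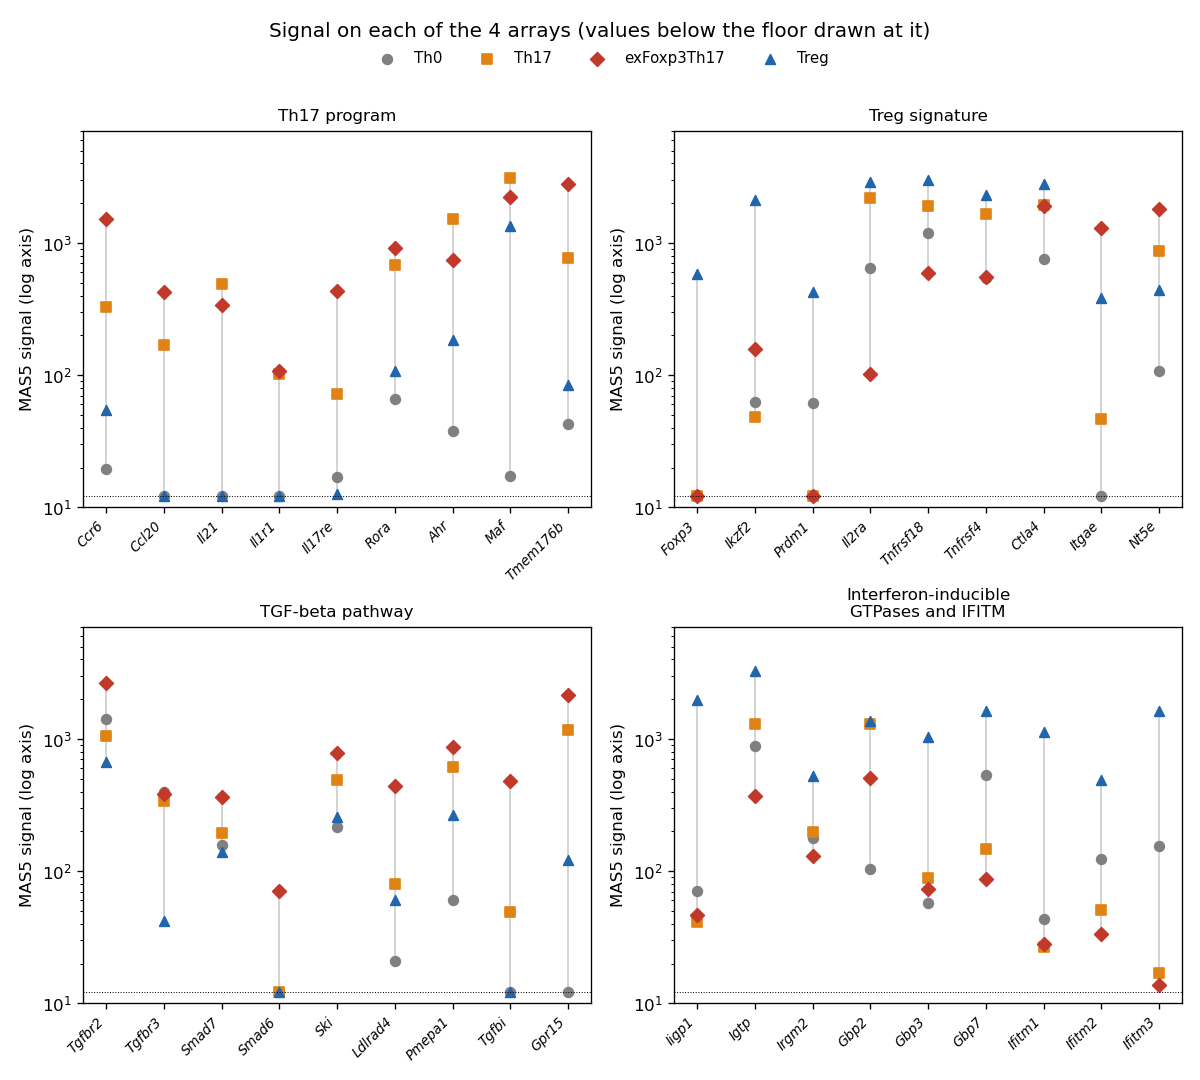
MAS5 signal (log axis) of 9 genes from each of 4 groups on the Th0, Th17, exFoxp3Th17 and Treg arrays, 1 point per array, with values below the floor of 12.1 (dotted line) drawn at it. Ccr6, Ccl20 and Il21 are high on both Th17 arrays, Foxp3 and Prdm1 are at the floor in exFoxp3Th17, the TGF-beta genes are mostly highest in exFoxp3Th17, and the GTPase and IFITM genes lie at or near their highest in Treg.

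Genes of the IL-2 and STAT5 response were mostly lower in exFoxp3Th17. The Treg culture contained IL-2, and its part in these values was not tested. Of 21 measured members, all above the floor, 15 were lower, 1 was higher and 5 were within 2-fold, with a median of -1.96 against 0.66 in Th17 over Th0. The feedback inhibitor Socs2 stood at 149 in exFoxp3Th17, 3883 in Treg, 3052 in Th17 and 1830 in Th0 (26.1-fold lower), with its 5 other probe sets above the floor lower too, 3 of them by 2-fold or more. Cish, another feedback gene, stood at 353 in exFoxp3Th17, 1366 in Treg, 1460 in Th17 and 421 in Th0 (3.87-fold lower), and Socs1 was 3.63-fold lower (32.6 against 118). All 3 feedback genes were thus lower.

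Of 12 targets in that list 10 were lower. Pim1, a survival kinase, stood at 238 in exFoxp3Th17, 2458 in Treg, 1821 in Th17 and 1792 in Th0 (10.3-fold lower), and Bcl2, which blocks cell death, stood at 483 in exFoxp3Th17, 1398 in Treg, 2227 in Th17 and 1414 in Th0 (2.89-fold lower). Pim2, a kinase of the same family, was the exception at 779 in exFoxp3Th17, 175 in Treg, 938 in Th17 and 541 in Th0 (4.46-fold higher). The cytokine gene Osm was 5.72-fold lower (81.6 against 467) and the cell cycle inhibitor Cdkn1a was 5.64-fold lower (76.9 against 434). In the signalling chain the receptor chain Il2rb was 3.9-fold lower (221 against 860.2), whereas Stat5a (206 against 114), Stat5b (513 against 273), Jak1 (1369 against 937) and Jak3 (113 against 113) were within 2-fold.

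Receptors that use the common gamma chain did not move as a block. Il7r, the IL-7 receptor of resting and memory T cells, stood at 3049 in exFoxp3Th17, 297 in Treg, 2378 in Th17 and 1267 in Th0 (10.3-fold higher), with Treg the low array. Il4ra was 3.12-fold lower (109 against 339.9), and Il15ra (27.6 against 24.1) and Il21r (82.1 against 151) were within 2-fold.

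The IL-6 and STAT3 response was divided. Its 16 measured members comprised 3 higher, 3 lower and 10 within 2-fold (median 0.27). Jak2, a kinase of cytokine receptors, was 4.29-fold higher (1247 against 291). Socs3, the feedback gene of STAT3, was alike on both arrays (2514 against 2461), as were Bcl3 (464 against 385) and Fosl2 (187 against 190.2), and all 3 were higher in Th17 than in Th0.

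Receptors, inhibitors and targets of the TGF-beta pathway were higher in exFoxp3Th17. All 18 measured members lay above the floor, 12 were higher, none was lower and 6 were within 2-fold, with a median of 1.66 and a range of 0.34 to 5.31. In Th17 over Th0 the median was 0.32.

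Among receptors and Smads 2 of 6 were higher. Tgfbr2, the ligand-binding receptor, stood at 2666 in exFoxp3Th17, 670.1 in Treg, 1055 in Th17 and 1409 in Th0 (3.98-fold higher), and the co-receptor Tgfbr3 stood at 384 in exFoxp3Th17, 42.0 in Treg, 341 in Th17 and 397 in Th0 (9.14-fold higher). For Tgfbr3 the Treg array was the low one and the other 3 were alike. Tgfbr1 (883 against 564), Smad2 (243 against 193), Smad3 (323 against 186) and Smad4 (1089 against 827) were within 2-fold.

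Of 8 inhibitors, many of them induced by the pathway itself, 6 were higher. Smad7, which blocks the receptor, stood at 361 in exFoxp3Th17, 141 in Treg, 194 in Th17 and 157 in Th0 (2.56-fold higher). Ldlrad4, which binds Smads, stood at 442 in exFoxp3Th17, 60.4 in Treg, 80.6 in Th17 and 20.7 in Th0 (7.32-fold higher), and Pmepa1 stood at 868 in exFoxp3Th17, 265 in Treg, 609.5 in Th17 and 60.2 in Th0 (3.27-fold higher). The nuclear repressors Ski (779.8 against 256) and Skil (1816 against 850.4) were 3.05-fold higher and 2.14-fold higher, and Smad6 was at least 5.8-fold higher (70.2 against 5.25). The ubiquitin ligases Smurf1 (49.2 against 26.5) and Smurf2 (274 against 152) were within 2-fold.

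All 4 targets were higher. Gpr15, a gut-homing receptor, stood at 2163 in exFoxp3Th17, 121 in Treg, 1161 in Th17 and 6.93 in Th0 (17.9-fold higher). Tgfbi, an extracellular matrix protein, stood at 479 in exFoxp3Th17, 4.13 in Treg, 49.0 in Th17 and 4.69 in Th0 (at least 39.6-fold higher), with 3 of 3 other probe sets above the floor higher by 2-fold or more. Ccr8 was at least 4.09-fold higher (49.5 against 8.88) and was under the floor on the naive-derived arrays. For Tgfbi the exFoxp3Th17 array was far above the other 3.

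Interferon-inducible GTPases and IFITM membrane proteins, which act against intracellular parasites and viruses, were lower in exFoxp3Th17. Of 14 members with a probe set 13 lay above the floor, of which 11 were lower, none was higher and 2 were within 2-fold, with a median of -3.16 against 0.06 over all genes and -0.30 in Th17 over Th0. Probes of these families can cross-hybridise between close copies, so a value for a single copy is uncertain.

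The promoters of 4 members called lower, and that of Irgm1, which was within 2-fold, are shown because they hold the interferon-stimulated response element, searched as GAAA, any 2 bases and GAAA on both strands in the 250 bases before the start. The windows are stretches of 100 bases within that region, taken from RefSeq's GRCm38.p6 promoter table and read 5′ to 3′ on the gene's strand, with the matches in capitals. They lie at chr3:142559944-142560043 (plus strand) for Gbp3, chr3:142530236-142530335 (plus) for Gbp7, chr11:58199456-58199555 (plus) for Igtp, chr7:140955962-140956061 (minus) for Ifitm2 and chr11:48871421-48871520 (minus) for Irgm1.
Gbp3: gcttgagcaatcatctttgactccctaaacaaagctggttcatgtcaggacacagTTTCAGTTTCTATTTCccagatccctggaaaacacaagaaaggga
Gbp7: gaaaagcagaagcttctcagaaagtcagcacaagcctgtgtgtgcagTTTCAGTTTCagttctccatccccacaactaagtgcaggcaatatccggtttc
Igtp: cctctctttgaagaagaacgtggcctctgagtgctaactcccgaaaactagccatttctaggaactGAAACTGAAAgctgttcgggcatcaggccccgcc
Ifitm2: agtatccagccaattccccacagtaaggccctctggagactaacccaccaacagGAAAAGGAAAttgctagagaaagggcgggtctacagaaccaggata
Irgm1: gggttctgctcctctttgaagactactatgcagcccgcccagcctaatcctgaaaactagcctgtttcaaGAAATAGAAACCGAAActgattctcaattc
In Gbp3 and Irgm1 overlapping matches run together in the capitals. The letters were found in 7 of 12 members with a promoter in the table (58.3%), in 6 of 9 of those called lower (66.7%) and in 3.46% of 27025 genes. Of the type I interferon response genes 7 of 14 (50%) held it. A match is a description of the letters and not of binding.

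Of 9 GTPases 7 were lower, with a median of -2.53. Iigp1 stood at 46.8 in exFoxp3Th17, 1976 in Treg, 40.9 in Th17 and 70.6 in Th0 (42.3-fold lower), Gbp3 at 73.8 in exFoxp3Th17, 1027 in Treg, 89.5 in Th17 and 57.9 in Th0 (13.9-fold lower) and Gbp7 at 87.0 in exFoxp3Th17, 1621 in Treg, 147 in Th17 and 537 in Th0 (18.6-fold lower). Igtp stood at 369 in exFoxp3Th17, 3292 in Treg, 1308 in Th17 and 886 in Th0 (8.92-fold lower), and Irgm2 (131 against 529) and Gbp6 (51.2 against 295) were 4.05-fold lower and 5.76-fold lower. Gbp2 stood at 509 in exFoxp3Th17, 1370 in Treg, 1298 in Th17 and 104 in Th0 (2.69-fold lower), with Th17 level with Treg. Irgm1 (257 against 431) and Ifi47 (1924 against 1953) were within 2-fold. For Iigp1 and Gbp3 the Treg array stood alone above the other 3.

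Of 4 IFITM genes above the floor 4 were lower, with a median of -4.61. Ifitm3 stood at 13.7 in exFoxp3Th17, 1624 in Treg, 17.1 in Th17 and 154 in Th0 (119-fold lower), Ifitm1 at 27.9 in exFoxp3Th17, 1130 in Treg, 26.7 in Th17 and 43.5 in Th0 (40.5-fold lower) and Ifitm2 at 33.5 in exFoxp3Th17, 492 in Treg, 50.9 in Th17 and 123 in Th0 (14.7-fold lower). Ifitm6 was at least 5.17-fold lower (2.65 against 62.6). In each of these 4 genes the Treg array held the highest signal, and the Th17 and exFoxp3Th17 arrays were within 2-fold of each other.

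The type I interferon response had 15 of 19 members above the floor, of which 1 was higher, 3 were lower and 11 were within 2-fold, with a median of -0.16. In Th17 over Th0 the median was -1.51. The viral RNA sensor Ifih1 was 2.87-fold higher (219 against 76.4) and Rtp4 was 7.91-fold lower (17.2 against 136), while Ifit2 (165 against 129) and Irf7 (42.2 against 37.7) were within 2-fold. Among receptors and factors, the interferon-gamma receptor chains went apart, with Ifngr1 2.44-fold lower (628 against 1529) and Ifngr2 4.8-fold higher (191 against 39.7). Irf1 was 2.57-fold lower (255 against 655) and Irf8 was 4.93-fold lower (69.3 against 342), whereas Ifnar1 (224 against 234) and Ifnar2 (390.4 against 293) were within 2-fold. Ifng itself was at least 2.12-fold lower (1.47 against 25.7), at a dim level.

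Cytotoxic granule genes were mostly lower, with 10 of 16 members above the floor, 6 lower, 1 higher and 3 within 2-fold, and a median of -1.49. Gzma was at least 9.01-fold lower (1.41 against 109), Nkg7 was at least 16-fold lower (2.60 against 194), Prf1, perforin, was 3.93-fold lower (14.3 against 56.0) and the death ligand Fasl was at least 4.16-fold lower (4.41 against 50.3). Ctsc, which activates granzymes, was 2.77-fold higher (3408 against 1229), and the proteoglycan Srgn was within 2-fold (2771 against 3493). The NK cell markers Ncr1 and Klre1 lay below the floor on both arrays. Granzymes share sequence, so single members are uncertain.

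Genes of DNA replication and mitosis were lower in exFoxp3Th17. Of 22 replication genes, all above the floor, 21 were lower and none higher, with a median of -2.13, and the last, Ccne1, stood just inside 2-fold (109 against 217). Of 23 mitosis genes, all above the floor, 23 were lower, with a median of -1.70. In Th17 over Th0 the medians were -0.25 and -0.77, so the naive-derived pair differed less in its median.

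Within replication, the licensing factor Cdc6 stood at 53.6 in exFoxp3Th17, 454 in Treg, 284 in Th17 and 235 in Th0 (8.46-fold lower), the helicase subunit Mcm2 at 101 in exFoxp3Th17, 718 in Treg, 478 in Th17 and 468 in Th0 (7.14-fold lower) and Mcm5 at 601 in exFoxp3Th17, 2719 in Treg, 1848 in Th17 and 2064 in Th0 (4.52-fold lower). Rrm2, a subunit of the enzyme that makes deoxynucleotides, stood at 738 in exFoxp3Th17, 3611 in Treg, 2300 in Th17 and 2959 in Th0 (4.89-fold lower). Uhrf1, which carries methylation through replication, was 6.78-fold lower (149.8 against 1016), and Pcna, the polymerase clamp, was 2.52-fold lower (1765 against 4454). For Cdc6, Mcm2, Mcm5 and Rrm2 the exFoxp3Th17 array was the lowest of the 4 and Treg the highest.

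Within mitosis, the kinase Aurkb stood at 131 in exFoxp3Th17, 824 in Treg, 577 in Th17 and 604 in Th0 (6.29-fold lower) and Cdk1 at 212 in exFoxp3Th17, 1265 in Treg, 680.2 in Th17 and 1280 in Th0 (5.96-fold lower). The topoisomerase Top2a stood at 1064 in exFoxp3Th17, 3911 in Treg, 3218 in Th17 and 4396 in Th0 (3.68-fold lower), and the spindle motor Kif11 at 173 in exFoxp3Th17, 700 in Treg, 369.9 in Th17 and 768 in Th0 (4.04-fold lower). Mki67, the proliferation marker Ki-67, was 2.94-fold lower (964 against 2837), and the smallest ratio of the list was that of Cenpe (2.09-fold lower). Top2a, Cdk1 and Kif11 were highest in Th0 and lowest in exFoxp3Th17.

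The CCAAT box was frequent in promoters of both the mitosis and the replication list, and the other letters searched differed between them. Promoters of 6 genes of these lists are shown for the letters they hold. Those of Cdk1, Top2a and Kif11 hold the CCAAT box and the cell cycle homology region, searched as CCAAT and TTTGAA, and those of Cdc6, Mcm5 and Mcm6 hold an E2F motif, searched as TTTGGCGC or TTTCCCGC, each on both strands. Capitals mark CCAAT and TTTGAA matches in the first 3 and E2F matches in the last 3. CCAAT also occurs, left in lower case, in the Mcm5 and Mcm6 windows. The windows, from the same RefSeq table, are chr10:69352913-69353162 (minus strand) for Cdk1, chr11:99024190-99024439 (minus) for Top2a, chr19:37376282-37376381 (plus) for Kif11, chr11:98907981-98908150 (plus) for Cdc6, chr8:75109339-75109508 (plus) for Mcm5 and chr1:128359706-128359875 (minus) for Mcm6.
Cdk1: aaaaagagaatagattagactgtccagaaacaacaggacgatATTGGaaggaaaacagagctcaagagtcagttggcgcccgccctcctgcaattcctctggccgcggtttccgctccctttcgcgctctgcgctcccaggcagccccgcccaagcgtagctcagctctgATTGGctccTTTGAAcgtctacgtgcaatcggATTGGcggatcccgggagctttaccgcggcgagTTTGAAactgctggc
Top2a: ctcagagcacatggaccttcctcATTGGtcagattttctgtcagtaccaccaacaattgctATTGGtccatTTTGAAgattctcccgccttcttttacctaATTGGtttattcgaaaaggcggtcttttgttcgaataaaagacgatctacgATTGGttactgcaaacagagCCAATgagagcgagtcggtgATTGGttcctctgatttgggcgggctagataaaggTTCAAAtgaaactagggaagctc
Kif11: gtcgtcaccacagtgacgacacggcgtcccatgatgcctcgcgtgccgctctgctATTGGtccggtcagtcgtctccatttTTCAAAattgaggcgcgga
Cdc6: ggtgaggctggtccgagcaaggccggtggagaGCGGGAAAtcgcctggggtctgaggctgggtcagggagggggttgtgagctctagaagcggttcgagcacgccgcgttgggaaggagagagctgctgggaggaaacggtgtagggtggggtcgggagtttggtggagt
Mcm5: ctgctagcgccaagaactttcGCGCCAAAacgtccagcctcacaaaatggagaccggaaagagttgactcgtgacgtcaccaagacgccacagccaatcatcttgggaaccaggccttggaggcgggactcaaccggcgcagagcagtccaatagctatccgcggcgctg
Mcm6: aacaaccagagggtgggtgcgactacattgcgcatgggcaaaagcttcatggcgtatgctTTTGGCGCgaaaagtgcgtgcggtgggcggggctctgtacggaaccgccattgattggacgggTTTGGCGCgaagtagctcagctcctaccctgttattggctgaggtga
TTTGAA was found in 9 of 18 mitosis promoters (50%), 2 of 17 replication promoters (11.8%) and 18.3% of all genes. CCAAT was found in 15 of 18 (83.3%), 12 of 17 (70.6%) and 37.5%. The E2F letters were found in 5 of 17 replication promoters (29.4%), in 0 of 18 mitosis promoters and in 1.51% of all genes.

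Regulators of entry into the cycle were lower or alike. Of 13 D cyclins, their partners and inhibitors 12 lay above the floor, of which 7 were lower and none higher, with a median of -1.68. Ccnd2 stood at 623 in exFoxp3Th17, 2273 in Treg, 1959 in Th17 and 1693 in Th0 (3.65-fold lower), with 6 of 6 other probe sets lower by 2-fold or more. Ccnd3 was 5.36-fold lower (169 against 903), but 1 of its 2 other probe sets went the opposite way by 2-fold or more. The inhibitors Cdkn2c (149 against 664) and Cdkn2a (4.74 against 82.8) were 4.44-fold lower and at least 6.84-fold lower, and Cdkn1b was within 2-fold (851 against 595).

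Factors tied to quiescence went mostly the other way, with 6 of 8 measured members higher, 1 lower and a median of 1.24. Btg1 stood at 5792 in exFoxp3Th17, 2416 in Treg, 3945 in Th17 and 3145 in Th0 (2.4-fold higher), Slfn2 at 2098 in exFoxp3Th17, 595 in Treg, 936 in Th17 and 1704 in Th0 (3.52-fold higher) and Foxo1 at 933 in exFoxp3Th17, 402 in Treg, 473 in Th17 and 524 in Th0 (2.32-fold higher). Klf2, which keeps naive T cells at rest and in circulation, was the exception at 141 in exFoxp3Th17, 843 in Treg, 273 in Th17 and 1336 in Th0 (5.98-fold lower). Both Th17 arrays were low in Klf2.

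Growth and metabolism genes were lower in part. Of 29 measured genes of Myc and ribosome biogenesis 12 were lower, 1 was higher (Wdr12, 528 against 206) and 16 were within 2-fold, with a median of -0.81. Myc itself stood at 222 in exFoxp3Th17, 527 in Treg, 986 in Th17 and 567 in Th0 (2.37-fold lower), and the nucleolar protein Nop56 at 263 in exFoxp3Th17, 909.8 in Treg, 967 in Th17 and 806 in Th0 (3.46-fold lower). The nucleolar proteins Ncl (3041 against 3195) and Npm1 (5697 against 4886) and the polyamine enzyme Odc1 (3335 against 2449) were within 2-fold. The Myc motif CACGTG was found in 2 of 22 promoters of this list (9.09%), in 0 of 9 of those called lower and in 6.86% of all genes.

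Glycolysis was lower in 10 of 14 measured genes and higher in none, with a median of -1.66 against 0.70 in Th17 over Th0. The glucose transporter Slc2a1 stood at 323 in exFoxp3Th17, 1831 in Treg, 2387 in Th17 and 759 in Th0 (5.66-fold lower). Hk2, hexokinase 2, stood at 98.9 in exFoxp3Th17, 383 in Treg, 835 in Th17 and 122 in Th0 (3.87-fold lower), and Tpi1 stood at 750.2 in exFoxp3Th17, 3905 in Treg, 3906 in Th17 and 3064 in Th0 (5.21-fold lower). For each of these genes exFoxp3Th17 was the lowest of the 4 arrays, and for Slc2a1 and Hk2 Th17 was the highest. Pgk1 (3631 against 4792) and Ldha (2726 against 4833) were within 2-fold. The core letters of the HIF motif, ACGTG, were found in 8 of 13 glycolysis promoters (61.5%) and 18.5% of all genes.

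Lipid genes gave smaller shares. Sterol synthesis was lower in 6 of 16 measured genes and higher in none (median -0.78), a count of lower genes that fell to 3 with the probe sets of a gene averaged, with Lss at 77.7 against 254 (3.27-fold lower) and Idi1 at 424 against 1262 (2.98-fold lower). The letters TCACNCCAC of the sterol response element were found in 1 of 13 of its promoters (7.69%) and 1.22% of all genes. Fatty acid synthesis was lower in 3 of 9, among them the desaturase Scd1 at 80.9 in exFoxp3Th17, 679 in Treg, 576 in Th17 and 356 in Th0 (8.39-fold lower). Of 6 genes of the LXR list above the floor Abca1 alone was called, and Abcg1, another cholesterol exporter, was at 513 against 453. The respiratory chain was within 2-fold in 16 of 17 genes (median -0.21), with Cycs, cytochrome c, the exception (1835 against 4093).

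Stress and secretory genes were partly lower. Of 13 endoplasmic reticulum chaperones and unfolded protein response genes 6 were lower and none higher (median -0.98), with Hsp90b1 at 625 in exFoxp3Th17, 2634 in Treg, 2061 in Th17 and 1842 in Th0 (4.21-fold lower) and Hspa5 within 2-fold (1553 against 2866). Of 17 ATF4 and amino acid genes above the floor 5 were lower and 1 was higher. The amino acid transporter Slc7a5 stood at 36.5 in exFoxp3Th17, 383 in Treg, 318 in Th17 and 88.8 in Th0 (10.5-fold lower), Trib3 was 8.9-fold lower (26.5 against 236), Phgdh, the first enzyme of serine synthesis, was 4.02-fold lower (416 against 1674), and Ddit3, CHOP, was 2.46-fold higher (266 against 108). The Slc7a5 signal in exFoxp3Th17 was the lowest of the 4 arrays.

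Receptors that guide migration differed in both directions. Of 17 chemokine and related receptors 15 lay above the floor, with 6 higher, 2 lower, 7 within 2-fold and a median of 0.82. Beside Ccr6, Gpr15 and Ccr8, the lymph node receptor Ccr7 stood at 1357 in exFoxp3Th17, 251 in Treg, 992 in Th17 and 962 in Th0 (5.4-fold higher), the follicle receptor Cxcr5 at 133 in exFoxp3Th17, 10.3 in Treg, 7.85 in Th17 and 4.58 in Th0 (at least 11-fold higher) and Cx3cr1 at 51.6 in exFoxp3Th17, 16.3 in Treg, 11.3 in Th17 and 9.38 in Th0 (3.16-fold higher). The Cxcr5 signal passed the floor in exFoxp3Th17 alone. Cxcr3, the receptor of Th1 cells, stood at 66.1 in exFoxp3Th17, 389 in Treg, 18.0 in Th17 and 16.8 in Th0 (5.89-fold lower), and the inflammatory receptor Ccr2 at 10.2 in exFoxp3Th17, 222 in Treg, 67.2 in Th17 and 164 in Th0 (at least 18.3-fold lower). The chemokines Ccl4 (10.7 against 39.9) and Ccl5 (32.9 against 97.7) were at least 3.3-fold lower and 2.97-fold lower.

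Of 11 integrin chains above the floor 2 were higher and 4 lower. Itgal, the LFA-1 chain, was 2.32-fold higher (1685 against 725), whereas Itgb3 was at least 12.6-fold lower (9.10 against 152), Itgb8, which activates TGF-beta, was 4.95-fold lower (14.3 against 71.0), Itga6 was 2.71-fold lower (485 against 1316) and Itgb7, the partner of Itgae, was 2.02-fold lower (375 against 758). Among galectins, S100 proteins and annexins 4 of 15 were lower and none higher. S100a6 was 3.44-fold lower (644 against 2214) and Anxa2 was 3.75-fold lower (689.8 against 2589), while Lgals1 was alike (6794 against 7111).

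Follicular helper genes were higher in 7 of 11 measured members and lower in none, with a median of 1.94 against 0.18 in Th17 over Th0. Follicular helper cells give help to B cells, and Bcl6 is their main transcription factor. Bcl6 stood at 350.2 in exFoxp3Th17, 37.4 in Treg, 172 in Th17 and 41.5 in Th0 (9.38-fold higher), and Pou2af1, a coactivator of octamer-binding factors, at 243 in exFoxp3Th17, 8.46 in Treg, 109.6 in Th17 and 96.7 in Th0 (at least 20.1-fold higher). Sh2d1a, the adaptor SAP, was 3.83-fold higher (1603 against 418) and the inhibitory receptor Btla was 2.32-fold higher (724 against 312). Pdcd1, PD-1, was within 2-fold (106 against 89.7), as was Cd200 (171 against 137). Tox2, Cxcr5 and Il21, given above, are also on this list.

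Genes of naive and resting T cells were higher in 5 of 10 measured members and lower in 1, with a median of 0.95. The chromatin organiser Satb1 stood at 4200 in exFoxp3Th17, 729.9 in Treg, 3881 in Th17 and 3066 in Th0 (5.75-fold higher), and the repressor Bach2 at 1584 in exFoxp3Th17, 419 in Treg, 1216 in Th17 and 698 in Th0 (3.78-fold higher). Lef1, an HMG-box factor, was 2.42-fold higher (1510 against 623). For Satb1 and Bach2 the Treg array was the lowest of the 4. Dapl1 was the lower member (14.1 against 89.3) and was far higher in Th0 (2522), and Foxp1 (1359 against 988), S1pr1 (279 against 351) and Id3 (183 against 350.2) were within 2-fold. Among the other HMG-box factors, Hmgb2 was 2.09-fold lower (1986 against 4142), while Tox (161 against 208), Tox4 (247 against 252) and Sox12 (35.5 against 18.7) were within 2-fold.

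Among Kruppel-like factors 2 of 10 were higher and 2 lower. Klf3 was 14.8-fold lower (36.1 against 534), Klf4 was 7.11-fold higher (153 against 21.5) and Klf12 was 3.49-fold higher (154 against 44.0). Klf6 (446 against 808) and Klf13 (785 against 442) were within 2-fold.

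Genes of other helper lineages were divided. Of 10 Th1 genes above the floor 5 were lower and 2 higher, with a median of -0.96. Tbx21, T-bet, stood at 3.01 in exFoxp3Th17, 86.8 in Treg, 0.53 in Th17 and 0.73 in Th0 (at least 7.17-fold lower), so Treg was the only array above the floor. Il12rb1 was 3.55-fold lower (28.5 against 101), whereas Stat4 was 2.42-fold higher (366 against 151). Of the Th2 list 5 of 8 lay above the floor: Gata3 was 2.13-fold lower (135 against 288), and Il9 was 2.46-fold higher (38.8 against 15.8) at a level far below that in Th17 (813).

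Cytokines and TNF family members moved in both directions. Among 11 TNF family ligands above the floor 6 were lower and 3 higher, with a median of -1.37. Tnfsf13b, BAFF, stood at 256 in exFoxp3Th17, 7.02 in Treg, 67.5 in Th17 and 2.11 in Th0 (at least 21.1-fold higher), and Tnfsf8, the CD30 ligand, at 595 in exFoxp3Th17, 70.4 in Treg, 251 in Th17 and 306 in Th0 (8.45-fold higher). Tnfsf10, TRAIL, was 6.02-fold lower (39.1 against 236), Tnfsf11, RANKL, was 3.56-fold lower (53.5 against 190.2), Lta was 4.48-fold lower (198 against 886) and Tnf was 3.99-fold lower (13.3 against 53.2). Csf1, a macrophage growth factor, was 5.79-fold higher (104 against 18.0). Il2, Il4, Il6 and Csf2 lay below the floor on both arrays.

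Of 8 costimulatory receptors above the floor 3 were lower and 1 was higher, Tnfrsf25 (830.3 against 129.9, 6.39-fold higher), with Cd28 (2830 against 1564) and Cd27 (249.6 against 156) within 2-fold. Inhibitory receptors were within 2-fold in 6 of 8, among them Lag3 (32.8 against 21.4).

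T cell receptor components were mostly alike, with 15 of 18 within 2-fold and a median of 0.32. Trat1 had signals of 48.2 in exFoxp3Th17, 876 in Treg, 23.9 in Th17 and 994 in Th0 and was low on both Th17 arrays. Plcg1, a phospholipase of the pathway, was 3.16-fold higher (1355 against 429), and Zap70 (386 against 367) and Lat (1766 against 1534) were within 2-fold. Downstream, immediate early genes and feedback phosphatases were lower in 9 of 16 and higher in 1, with a median of -1.08. Dusp5, which inactivates the kinase ERK, stood at 15.5 in exFoxp3Th17, 266 in Treg, 51.6 in Th17 and 164 in Th0 (17.2-fold lower), and Nr4a3 was 4.9-fold lower (27.8 against 136). Dusp10 was 2.53-fold higher (154 against 60.9). Egr1 (109 against 109.7) and Dusp4 (1001 against 896) were alike.

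Of 8 AP-1 factors above the floor Fos alone was called (62.2 against 334, 5.36-fold lower), and Jun (224 against 184) and Junb (185 against 145) were within 2-fold. In the NF-kB pathway 3 of 13 were higher and none lower. Relb, a subunit of the alternative arm, was 5.63-fold higher (153 against 27.2), and the inhibitor Tnfaip3, A20, was 3.32-fold higher (373 against 112). In the BCL2 family 3 of 12 were higher and 2 lower: Bcl2l2 (191 against 69.9) and the death factors Bmf (94.9 against 32.4) and Bbc3 (55.7 against 25.8) against Bcl2 and Bid (27.7 against 78.4).

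Most genes of basic cell functions were within 2-fold. Ribosomal proteins were within 2-fold in 12 of 12, with a median of 0.24. The 20S core of the proteasome was within 2-fold in 14 of 14, and of 4 immunoproteasome genes Psmb9 was 2.49-fold lower (700.2 against 1746). MHC class I presentation was within 2-fold in 6 of 7, with the peptide transporter Tap1 2.12-fold lower (405 against 859). GIMAP GTPases of lymphocytes were within 2-fold in 7 of 8, with Gimap7 7.5-fold lower (64.7 against 485). Of 8 housekeeping genes 7 were within 2-fold, with a median of 0.04 that became -0.18 under quantile normalization, -0.04 with equal medians and -0.11 with all probe sets averaged. Gusb was 2.24-fold lower (139 against 311).

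Lysosomal genes were within 2-fold in 12 of 16. The proton pump subunit Atp6v0d2 stood at 329 in exFoxp3Th17, 16.5 in Treg, 19.6 in Th17 and 7.03 in Th0 (20-fold higher), far above the other 3 arrays, and the cathepsin Ctsl was 5.16-fold higher (726 against 141). Among 9 DNA methylation and Polycomb genes the maintenance methyltransferase Dnmt1 was 4.12-fold lower (364 against 1501), Tet1 was 3.09-fold higher (52.4 against 16.9), and Ezh2 was within 2-fold (888 against 1428).

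**Figure D3:**
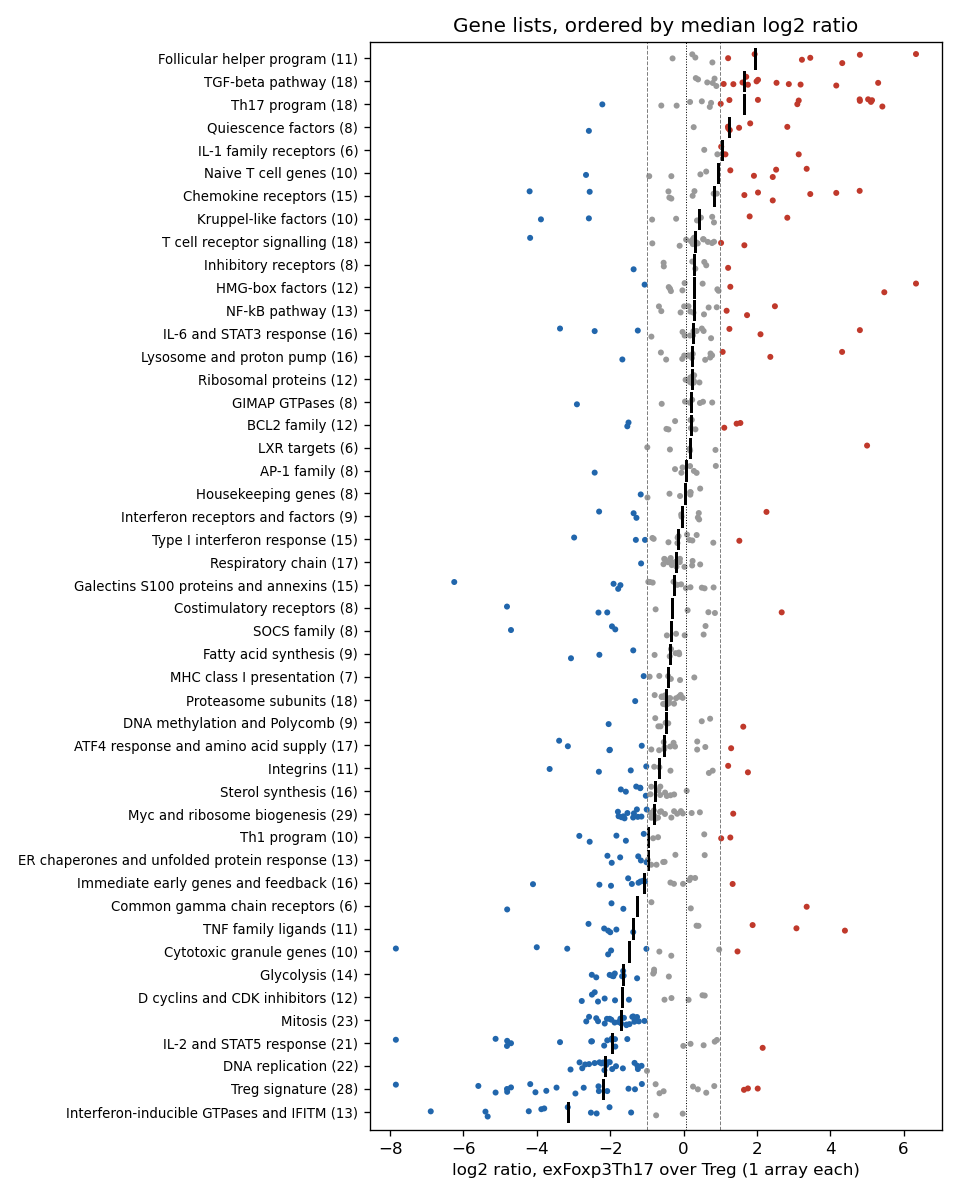
Log2 ratio of exFoxp3Th17 over Treg (x axis, 1 array each) for members above the floor of each gene list with 6 or more such members (their number in parentheses), ordered by the list's median (black bar); red points are higher and blue points lower by 2-fold or more, dashed lines mark 2-fold and the dotted line the median over all genes, 0.06. Follicular helper (1.94) and TGF-beta (1.66) lists have the highest medians and the interferon-inducible GTPase and IFITM list (-3.16) the lowest.

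Without replicates, the check within these arrays was the agreement of a gene's probe sets. Of 1328 genes called higher 693 had another probe set that passed the floor, and it went the same way for 650 (93.8%) and by 2-fold or more for 385 (55.6%). Of 1170 called lower 543 had one, with 526 the same way (96.9%) and 369 by 2-fold or more (68%). A second probe set went the opposite way by 2-fold or more for 2 higher and 3 lower genes.

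A second probe set passes a fixed 2-fold bar more easily where the first ratio is larger. The shares at larger differences therefore do not measure closer agreement. At 8-fold or more the second probe set was higher by 2-fold or more for 56 of 59 higher genes (94.9%) and lower by as much for 28 of 34 lower genes (82.4%). Over 5444 genes with 2 probe sets above the floor the log2 ratios of the 2 differed with a robust SD of 0.45. This was 0.76 in genes with a mean signal of 1 to 4 times the floor and 0.30 in genes at 64 times the floor or more, so ratios of dim genes were less certain. The agreement covers the measurement within these 2 RNA samples and not differences between cultures, sorts or animals.

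**Figure D4:**
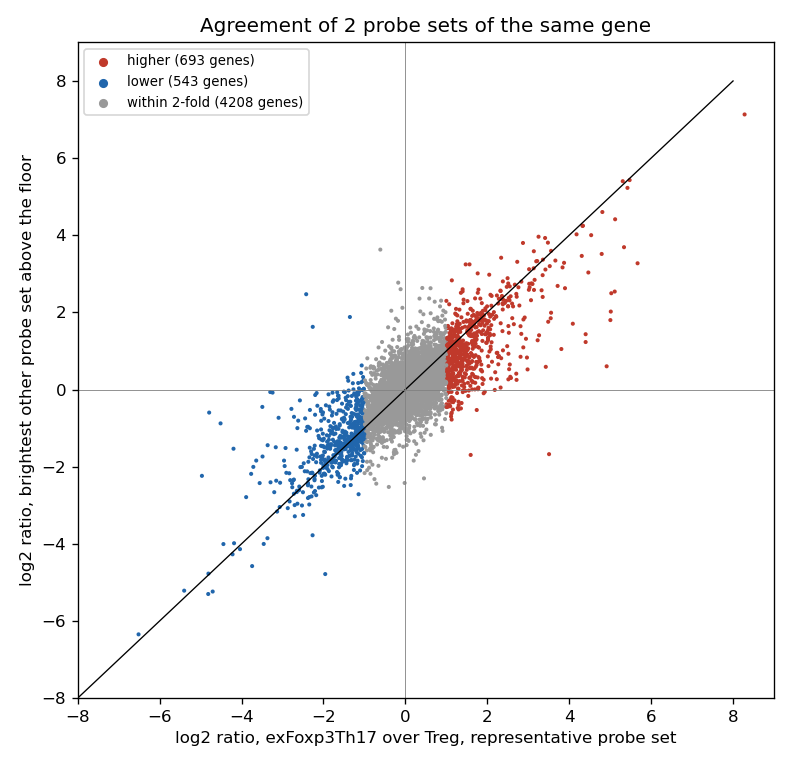
Log2 ratio of exFoxp3Th17 over Treg from the representative probe set of a gene (x axis) and from its brightest other probe set above the floor (y axis), 1 point per gene, with the diagonal of equal ratios; red, blue and grey mark genes called higher (693), lower (543) and within 2-fold (4208). Of the called genes 650 higher and 526 lower ones fall on the same side of 0 on both axes.

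For some named genes the printed ratio was that of the brightest probe set, and others of the same gene gave smaller ones. Among the genes named for their size, the smallest log2 ratio of another probe set was 0.60 for Abhd15, 0.35 for Acpp, -0.51 for Pdlim5 and 0.27 for Dzip1. On the lower side it was -0.95 for Ccr2, -0.37 for Tgm2, -0.15 for Vldlr, -0.55 for Socs2 and -0.44 for Klf3. Among called list members, every other probe set above the floor stayed within 2-fold for Ahr, Il6ra, Plagl1, Tgfb1, Smad7, Fasl, Ifngr2, Foxo1, Itgal, Cd4, Bid, Ddit3, Il1rap, Il17rd, Tnfsf11 and Gusb.

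Some named genes lay close enough to 2-fold, or were dim enough, that their calls ended under another setting. With other scalings of the arrays these were Cd4, Il1rap, Il18r1 and Bbc3, with the floor added as a pseudocount also Il9 and Itgb7, and without probe sets of shared sequence Plagl1 and Hmgb2. With all probe sets of a gene averaged they were Adk, Bcl2l2, Bid, Bmf, Ccnd3, Cd4, Cx3cr1, Cycs, Ddit3, Dusp10, Foxo1, Gusb, Il17rd, Il1rap, Il6ra, Itgal, Klf12, Lss, Mcm6, Nr4a3, Plagl1, Plcg1, Prf1, Smad7, Tap1 and Tnfaip3. With a floor 4 times as high they were Bbc3, Bid, Bmf, Ccl4, Ccr8, Cd79b, Cdkn2a, Cx3cr1, Dapl1, Entpd1, Fasl, Ifitm6, Ifng, Il17rd, Il1rap, Il9, Itgb8, Prf1, Slc29a1, Smad6, Tbx21, Tet1 and Tnf. None of these genes was called in the opposite direction under any setting.

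Counts of some lists moved with these genes. With probe sets averaged, higher members became 1 in place of 3 in the BCL2 family and in the NF-kB pathway, and 2 in place of 4 among IL-1 family receptors, where equal medians and the pseudocount gave 2 as well. With the floor 4 times as high, lower members became 3 in place of 6 among cytotoxic granule genes and TNF family ligands, 3 in place of 5 in the Th1 program, and 1 in place of 3 in the adenosine pathway and the type I interferon response. That floor also left 2 of 4 higher IL-1 family receptors and 1 of 3 higher BCL2 family genes. A floor of 2 times gave 1 lower type I interferon gene, and 0.5 times gave 4 lower chemokine receptors in place of 2. Immediate early genes and feedback had 6 lower members in place of 9 with the pseudocount and also with probe sets averaged. Averaging left this list 0 higher members in place of 1 and a median of -0.56 in place of -1.08. It also left T cell receptor signalling 0 higher members in place of 2.

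The ratio of exFoxp3Th17 over Treg was set beside that of Th17 over Th0, which sets Th17 culture of naive cells against Th0 culture and shares no array with it. Of 11050 genes above the floor on either the Th17 or the Th0 array, 968 (8.76%) were higher in Th17 and 810 (7.33%) lower. Across 11769 genes above the floor on any array Pearson's r between the 2 ratios was 0.14 and Spearman's rho was 0.09. These correlations are across genes, which are not independent replicates.

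Of the 1328 genes higher in exFoxp3Th17 than in Treg, 291 were also higher in Th17 than in Th0. They are 21.9% of the former and 30.1% of the 968 of the latter. A further 832 (62.7%) were within 2-fold in Th17 over Th0, 137 (10.3%) were lower there and 68 lay below the floor on both. Of the 1170 lower genes 198 were lower in both pairs, 16.9% of these and 24.4% of the 810, while 762 (65.1%) were within 2-fold and 160 (13.7%) were higher in Th17 than in Th0.

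Genes called in opposite directions in the 2 pairs were read by the size of the difference of their log2 ratios. Higher in exFoxp3Th17 and lower in Th17 were Adh1, an alcohol dehydrogenase, at 251 in exFoxp3Th17, 15.6 in Treg, 19.7 in Th17 and 212 in Th0, the sialyltransferase St8sia6 at 575 in exFoxp3Th17, 65.4 in Treg, 26.6 in Th17 and 391 in Th0 and Tdrp at 398 in exFoxp3Th17, 6.07 in Treg, 39.1 in Th17 and 379 in Th0. The protease Capn3 stood at 698 in exFoxp3Th17, 38.5 in Treg, 35.1 in Th17 and 172 in Th0. In each of these 4 genes exFoxp3Th17 and Th0 were high and Th17 and Treg were low. The same order held for Dzip1, Snn, Nsg2 and Pik3ip1, an inhibitor of PI3 kinase, which were 9.3-fold higher, 6.12-fold higher, 5.38-fold higher and 11.8-fold higher in exFoxp3Th17 than in Treg. Bambi-ps1, named in the annotation as a pseudogene, was 14-fold higher, and its signal cannot be told apart from that of the parent gene.

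Lower in exFoxp3Th17 and higher in Th17 were the transglutaminase Tgm2 at 21.5 in exFoxp3Th17, 236 in Treg, 3704 in Th17 and 7.41 in Th0, and Plac8 at 14.4 in exFoxp3Th17, 547 in Treg, 1133 in Th17 and 21.6 in Th0. Enah, an actin regulator, stood at 17.0 in exFoxp3Th17, 532 in Treg, 682 in Th17 and 31.7 in Th0, but its 4 other probe sets above the floor gave log2 ratios of -2.24 to -0.02 in exFoxp3Th17 over Treg against -4.97. Il10 stood at 12.0 in exFoxp3Th17, 133 in Treg, 408 in Th17 and 5.13 in Th0. For Tgm2 and Il10 Th17 was the highest of the 4 arrays, and for Plac8 and Enah both Th17 and Treg were high. Vldlr, a lipoprotein receptor, stood at 16.1 in exFoxp3Th17, 201 in Treg, 491 in Th17 and 40.8 in Th0. The zinc-binding metallothionein Mt2 stood at 614 in exFoxp3Th17, 1792 in Treg, 2990 in Th17 and 31.9 in Th0, and the protease inhibitor Serpinb1a at 204 in exFoxp3Th17, 515 in Treg, 1354 in Th17 and 1.16 in Th0. In Mt2 and Serpinb1a exFoxp3Th17 lay between Th0 and Treg, whereas Th17 was above all.

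**Figure D5:**
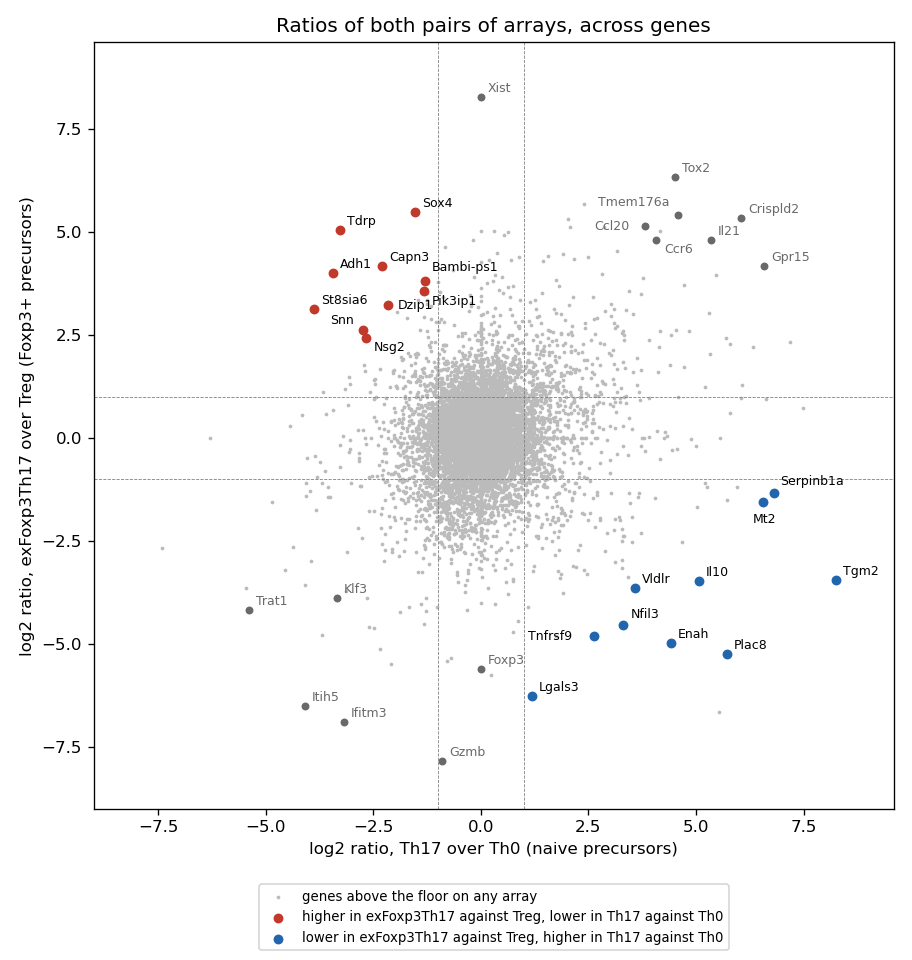
Log2 ratio of Th17 over Th0 (x axis, naive precursors) and of exFoxp3Th17 over Treg (y axis, Foxp3+ precursors) for 11769 genes above the floor on any array, 1 point per gene; dashed lines mark 2-fold, coloured points are the 10 genes in each direction with opposed calls and the largest difference of ratios, and dark points are other named genes. Tox2, Ccr6, Ccl20 and Il21 lie far up on both axes, Sox4 and Tdrp upper left, and Tgm2, Plac8 and Enah lower right.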

How the data were processed

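RNA (1 µg, per the labels) of each population was hybridised to 1 expression array. The intensity values were deposited by the authors on the linear scale of MAS5, which the submitters' processing notes name without a version. The trimmed mean is 100 on each array. Of 45101 probe sets 64 were controls, 34945 had 1 gene symbol in GEO's platform annotation, 932 several and 9160 none, and 34741 of the single-gene ones matched RefSeq's gene table. No column of values was left unassigned, and scanner files and detection calls were not used here.

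Values below 12.1, the median of the non-control probe sets over the 4 arrays, were set to it as a floor before log2, so a list's median takes such genes at their bound. A gene took the brightest of its single-gene probe sets, by mean log2 before the floor. A call needed a 2-fold difference with the higher array above the floor. With 1 array per population there was no test, and the number of arrays limits the precision. Named genes were Foxp3 and Il17a, the 25 largest ratios in each direction, the 10 largest opposed to Th17 over Th0 in each direction, and list members. The sets of 25 and 10 needed 48.4 signal units on the brighter array, no probe set opposed by 2-fold and a symbol that is no clone or predicted name. The 60 lists, 7 of them markers of cell types, hold 701 genes, 644 with a probe set. The lists and the genes on them were chosen with earlier results of these data known. Promoter motifs were searched in 250 bases before the start. Alternatives changed the floor, the scaling, the probe set and the fold. Python 3.11.15, numpy 2.4.6, pandas 2.3.3, scipy 1.17.1 and matplotlib 3.10.9 were used.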

Additional observations from a re-analysis of the deposited data

Results flagged for a closer look

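The genes here were called in opposite directions in exFoxp3Th17 over Treg and in Th17 over Th0, 2 comparisons that share no array. Each value is the log2 ratio of the first minus that of the second, from the gene's brightest probe set. Other probe sets gave smaller ratios in exFoxp3Th17 over Treg for Enah, Tgm2, Vldlr and Dzip1, the smallest of them -0.02, -0.37, -0.15 and 0.27. Other probe sets were not examined for Th17 over Th0. Several genes lay just past 2-fold in 1 of the comparisons. In Th17 over Th0 these included Ifih1 (log2 -1.01), Prf1 (1.02) and Tnfrsf1b (1.06). In exFoxp3Th17 over Treg they included Manf (-1.01), Il18r1 (1.03) and Bbc3 (1.11). The calls of Bbc3, Il18r1, Prf1 and Tet1, among others, ended under another setting, as given above. With 1 array per population the difference was not tested, and no explanation was examined. The exFoxp3Th17 array also stood apart from all the others in Xist and the Y-linked genes.

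Higher in exFoxp3Th17 and lower in Th17, with a positive difference, were 4 groups of genes. Among those with the largest opposed ratios the difference was 8.31 for Tdrp, 7.43 for Adh1, 7.01 for St8sia6, 7.00 for Sox4, 6.47 for Capn3, 5.37 for Dzip1, 5.35 for Snn, 5.10 for Nsg2 and for Bambi-ps1, and 4.88 for Pik3ip1. For the death factor Bbc3 it was 2.58, and for the quiescence factor Btg2 it was 2.79. The RNA sensor Ifih1 differed by 2.53 and the cytokine receptor Il18r1 by 2.50. Tet1, which oxidises methylated cytosine, differed by 3.42.

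Lower in exFoxp3Th17 and higher in Th17 were genes of several lists. Among the largest opposed ratios the difference was -11.72 for Tgm2, -10.96 for Plac8, -9.39 for Enah, -8.54 for Il10, -8.14 for Serpinb1a, -8.10 for Mt2, -7.83 for Nfil3, -7.45 for Tnfrsf9, -7.43 for Lgals3 and -7.23 for Vldlr. In the IL-2 response it was -6.56 for Il2ra, -3.08 for Il2rb, -3.75 for Cish and -5.77 for Cdkn1a. Of the TNF family, Tnfrsf4 was at -3.69, Tnfrsf1b at -2.19, Tnfsf9 at -3.78, Lta at -4.82 and Tnf at -4.76.

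Metabolic genes were a further set of this kind. The glucose transporters Slc2a1 and Slc2a3 were at -4.15 and -3.84, Hk2 at -4.73 and Pgam1 at -3.58. The amino acid transporter Slc7a5 was at -5.23 and Chac1 at -2.61. The endoplasmic reticulum genes Manf, Pdia6 and Sdf2l1 were at -2.49, -2.63 and -3.49. Of transcription factors, Irf4 was at -5.48 and Irf8 at -6.03. The feedback genes Ier3 and Spred1 were at -7.22 and -3.18. Il12rb1 was at -4.36, Prf1 at -2.99, the GTPase Gbp2 at -5.07 and the class II chain H2-Ab1 at -5.62.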

How the results depend on the processing

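No paired analysis was possible because each population had 1 array and the arrays carry no replicate numbers, so no replicate could be left out either. Against 1328 higher and 1170 lower genes, a floor 4 times as high gave 864 and 774, and a 3-fold threshold gave 555 and 539; fewer genes can be called under both. Under the other settings, 0.5 and 2 times the floor, the floor as a pseudocount, 2 other scalings, averaged probe sets, no _x_at probe sets, and probe sets ranked after the floor, which was chosen after seeing the data, the counts ran from 953 to 1623 higher and from 956 to 1480 lower. The share of higher genes among those called was 53.2%, and it was 48.4% (1193 and 1271) under quantile normalization, 47.1% (1157 and 1300) with equal medians and 49.9% (953 and 956) with averaged probe sets. The share of called genes with a second probe set going the same way was 95.1%. It was 89.8% with 0.5 times the floor, 96.7% with 2 times, 97.9% with 4 times, 96.8% with the pseudocount and 98.5% at 3-fold, and the cause was not tested. Of 308 called genes named or on a list, 226 kept their call under every setting except the 3-fold threshold, where 214 did, and 0 changed direction. The medians of small or near-zero lists (other cytokines, Th2, chemokines, interferon receptors, CD8 markers, AP-1 and housekeeping genes) changed sign under some setting. The median over all genes ran from -0.02 to 0.08. Signal over background limits dim genes, and no setting speaks to differences between animals or cultures.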

Other observations

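Of the probe sets with no gene name, 3233 lay above the floor on the exFoxp3Th17 or the Treg array. Among these 3233 probe sets, 352 were higher in exFoxp3Th17 by 2-fold or more and 198 were lower. The counts are to be read against 11.9% higher (1328 of 11197) and 10.4% lower (1170) over all genes. The unnamed probe sets enter no gene count.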
